A study of Mus musculus with 18 samples.

Results

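GABA-A receptors are pentameric chloride channels that open when GABA binds and so carry most fast inhibition in the hippocampus. The subunits described here are alpha 2, alpha 3, alpha 4 and alpha 5 (Gabra2, Gabra3, Gabra4, Gabra5), beta 1 and beta 2 (Gabrb1, Gabrb2) and delta (Gabrd). They were taken as all probes that the platform annotation assigns to these 7 genes. Of the 7 genes, 6 had a named probe, with 11 probes among the 45281 of the array, and 5 genes with 7 probes lay above background, among 18250 such probes for 10436 named genes. No probe carried the symbol Gabra2, which was not analysed here.

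The study asked what an adolescent course of cannabis does to the brain at its end and in later life. The samples were hippocampi of C57BL/6J mice. Pups were hand-fed by syringe each day from postnatal day 14 to postnatal day 28, either with cannabis extract at 20 mg/kg in an emulsion of sweetened condensed milk and olive oil, or with the emulsion alone, called vehicle. Total RNA was labelled as biotinylated cRNA and read on an Illumina mouse bead array, which gives 1 log2 intensity per probe and array. The groups were adult mice fed cannabis (5 arrays), adult mice fed vehicle (5 arrays), P28 mice fed cannabis (4 arrays) and P28 mice fed vehicle (4 arrays). The labels give the adults as P56. P28 mice were killed shortly after a feeding, while still on treatment. Adults of both groups had passed a battery of behavioural tests that included the dissociative anaesthetic PCP, and were killed after a washout. Whether an array stands for 1 mouse is not stated, so p-values measure the spread between arrays only.

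A receptor usually joins alpha and beta subunits with a gamma or a delta subunit. Beta subunits are needed for assembly and surface delivery and form the GABA site together with alpha. Receptors with alpha 4 and delta lie outside synapses of dentate granule neurons, answer low ambient GABA and are sensitive to neurosteroids. Receptors with alpha 5 serve a similar tonic role on pyramidal neurons, and alpha 2 and alpha 3 are mostly synaptic. Hippocampal subunit levels are known to shift during development, which makes the feeding window a period of interest.

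The promoters of 3 subunits are shown because they differ in kind and because 2 of them lie side by side. The windows are from RefSeq on GRCm38.p6 and run from 250 bases before the annotated start to 50 bases after it. Gabra4 (chr5:71658259-71658558, minus strand) and Gabrb1 (first of 2 starts, chr5:71657671-71657970, plus strand) are transcribed away from each other, and their annotated 5′ ends overlap by 388 bases. Gabrb2 (first of 3 starts, chr11:42420190-42420489, plus strand) is shown beside them. Capitals mark matches on either strand to TATAAA, the TATA box, or to GCGNGGGCG, the sequence bound by Egr factors.
Gabra4: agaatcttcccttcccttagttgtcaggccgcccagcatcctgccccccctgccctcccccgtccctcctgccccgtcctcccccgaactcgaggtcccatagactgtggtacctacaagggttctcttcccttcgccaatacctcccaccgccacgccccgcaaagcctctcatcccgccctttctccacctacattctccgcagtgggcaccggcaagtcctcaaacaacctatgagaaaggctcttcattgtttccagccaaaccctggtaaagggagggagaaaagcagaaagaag
Gabrb1: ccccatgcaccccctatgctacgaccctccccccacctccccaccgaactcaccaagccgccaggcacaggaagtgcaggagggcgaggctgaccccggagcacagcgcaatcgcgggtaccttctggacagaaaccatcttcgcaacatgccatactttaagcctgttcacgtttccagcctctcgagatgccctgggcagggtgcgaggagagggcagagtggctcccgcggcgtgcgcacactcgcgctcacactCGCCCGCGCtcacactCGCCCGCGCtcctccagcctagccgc
Gabrb2: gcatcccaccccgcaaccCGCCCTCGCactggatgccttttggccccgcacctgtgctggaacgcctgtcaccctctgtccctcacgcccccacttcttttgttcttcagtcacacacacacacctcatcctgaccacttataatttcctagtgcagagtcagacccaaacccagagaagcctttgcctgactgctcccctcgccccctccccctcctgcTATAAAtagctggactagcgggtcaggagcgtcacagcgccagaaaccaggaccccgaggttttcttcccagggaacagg
The Gabrb1 window held 2 separate matches to GCGNGGGCG, which began 8 and 24 bases after the start. The Gabrb2 window held TATAAA from position -30 relative to the start and 1 GCGNGGGCG match, and the Gabra4 window held neither motif. Of all 32851 promoter windows, 13.6% held TATAAA and 5.55% held GCGNGGGCG, against 3 and 2 of the 10 windows of these subunits. The 2 windows of Gabra3 overlap and share 1 TATAAA, and no TATAAA match overlapped a GCGNGGGCG match. TGACGTCA, the cyclic AMP response element, was in 1.79% of all windows and in 0 of the 10. The Gabrb1 and Gabra4 windows had 66.0% and 58.7% G and C with 25 and 12 CpG sites, beside medians of 52.7% and 7 over all windows. Gabra2, Gabra3 and Gabra5 had windows as well, and Gabrd had none in the table. The main probes of Gabra4 and Gabrb1, neighbours on chromosome 5, had a Pearson r of -0.098 over the 18 arrays. This is a description over all groups, and the Gabra4 probe lay near the background level.

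A common property of the arrays showed in at least 1 subunit probe. Arrays numbered 4 and 5 in each group (6 arrays) stood apart from those numbered 1 to 3 (12 arrays) on the first principal component. This component was taken after group means were removed and held 40.0% of the variance that remained. Within groups, 23.6% of all tested probes differed between these 2 sets of arrays (limma, adjusted p under 0.05). Gabrb1 probe 1 was among them, at 10.68 in arrays 4 and 5 against 10.35 in arrays 1 to 3, a difference within groups of 0.31 ± 0.06 (SE, limma adjusted p = 0.00107). The other 6 subunit probes did not pass, with differences from -0.17 (Gabrd probe 1) to 0.15 (Gabrd probe 2). Cannabis and vehicle groups of 1 age hold the same replicate numbers, whereas adults and P28 mice do not. Values with the 2 sets as a block are given for some of the results.

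Markers of hippocampal neurons were present. All 4 CA1 markers and all 5 CA3 markers with a named probe, and Prox1 and Trpc6 of the 4 dentate markers, were above background, and Calb1 and Tdo2 were not. Of the lists for neighbouring regions, 4 of 6 thalamus, 4 of 5 striatum and 2 of 5 cerebellar granule markers with a named probe were above background as well, and Gabra6, the cerebellar granule subunit, was not. Markers of the choroid plexus, 8 of 8, had higher means in P28 cannabis than in P28 vehicle mice, with none called. Their mean log2 level ranged from 7.67 to 9.59 in the P28 cannabis arrays, against 7.21 to 8.66 in the P28 vehicle arrays. In adults, all 7 oligodendrocyte and all 4 CA1 markers had higher means in cannabis than in vehicle mice, with none called. Mean levels over the arrays were 10.7 to 11.5 in adult cannabis against 10.4 to 11.2 in adult vehicle mice for oligodendrocytes, and 10.2 to 10.9 against 10.1 to 10.7 for CA1. No subunit result below is called, and the part of these tissues and cells in the subunit values was not tested.

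**Figure D1:**
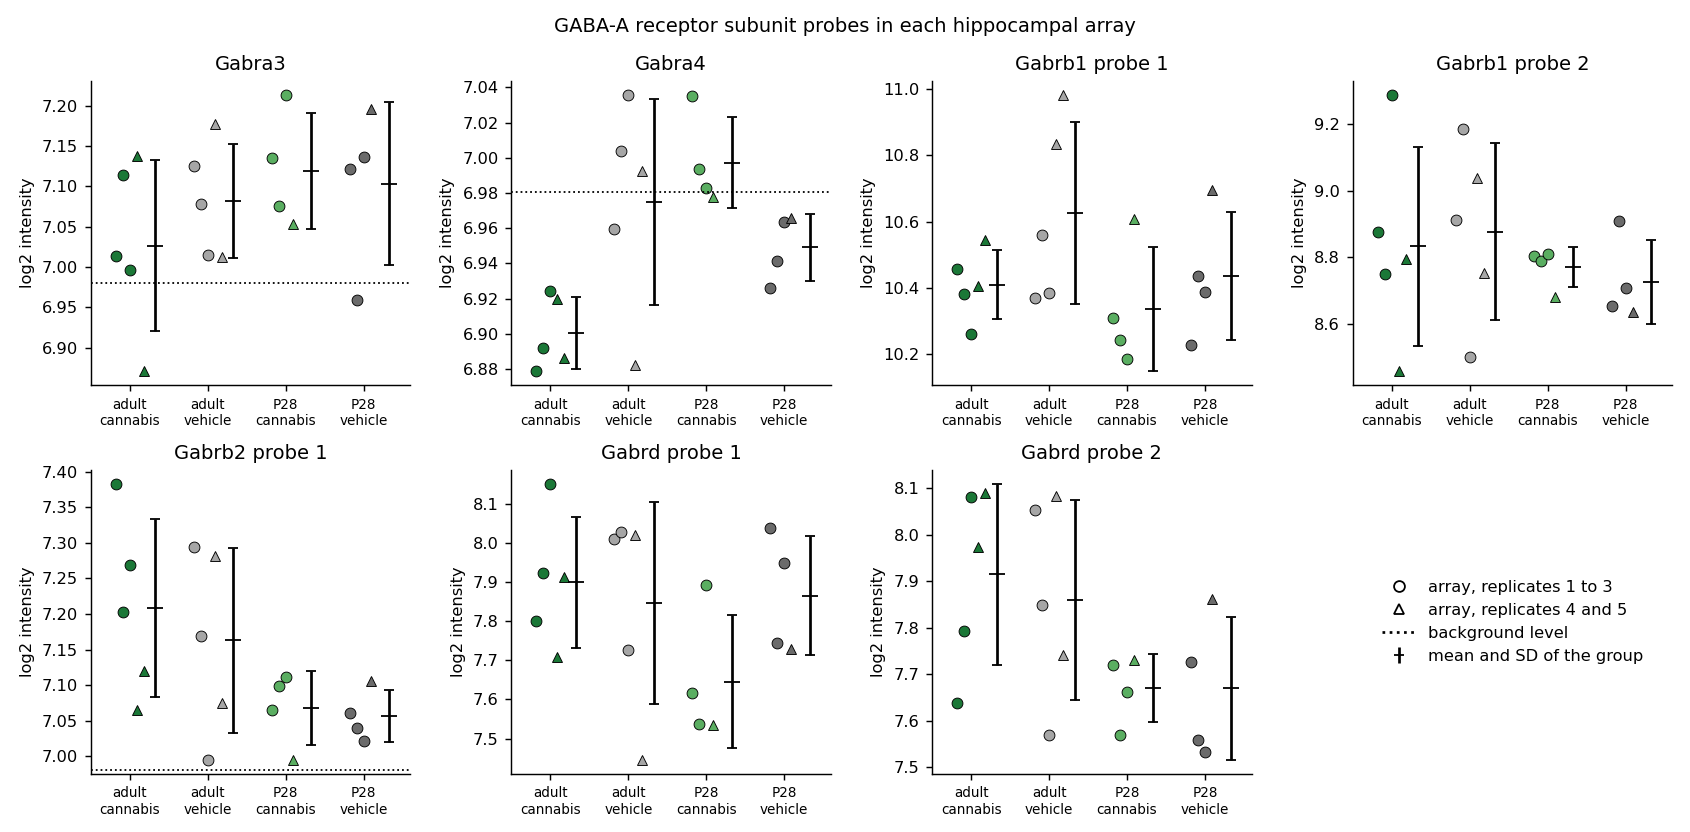
Log2 intensity of the 7 subunit probes above background in each of the 18 arrays, by group, with circles for replicates 1 to 3, triangles for replicates 4 and 5, the group mean and SD as bars, and the background level of 6.98 as a dotted line where it falls on the axis. The y axes differ between panels and do not start at 0; groups overlap in most panels, and Gabra4 lies at the background level.

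No GABA-A subunit probe passed the test for a change with cannabis. At P28, 0 of 7 subunit probes were called (limma, adjusted p under 0.05), and 0% of the 18250 probes were called in that comparison. In adults, again 0 of 7 subunit probes were called, beside 0% of all probes. The test of whether the cannabis effect differed between ages called 0 of 7, beside 0% of all probes. At an unadjusted p under 0.05 the subunits gave 0, 0 and 0 probes in these 3 comparisons, and all probes gave 327, 647 and 531. The median log2 difference of the subunit probes was 0.011 at P28 and -0.044 in adults, beside -0.00055 and 0.0015 for all probes. A hippocampal extract cannot tell fewer cells of a type from less RNA per cell, and the high floor of the intensities compresses fold changes, most for dim probes.

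The precision differed between the probes. Over the 7 probes, the 95% intervals of the cannabis difference at P28 reached from -0.49 to 0.35 on the log2 scale, and in adults from -0.46 to 0.29. The narrowest belonged to Gabra4, from -0.043 to 0.14 at P28 and from -0.16 to 0.0073 in adults, on a scale compressed near the floor. The widest at P28 belonged to Gabrb1 probe 2, from -0.26 to 0.35. The SE of the cannabis difference ran from 0.039 for Gabra4 in adults to 0.144 for Gabrb1 probe 2 at P28.

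Gabrb1 encodes the beta 1 subunit and had the largest cannabis difference of the set in adults. Its brighter probe (probe 1, ILMN_2742197, well above background in all 18 arrays) read 10.46, 10.38, 10.26, 10.41 and 10.54 in adult cannabis mice, against 10.37, 10.56, 10.38, 10.83 and 10.98 in adult vehicle mice. At P28 it read 10.31, 10.24, 10.18 and 10.61 in cannabis mice, against 10.23, 10.43, 10.39 and 10.69 in vehicle mice. The groups overlapped at both ages, and the highest readings in every group came from arrays 4 or 5. The adult means were 10.41 ± 0.10 in cannabis mice and 10.63 ± 0.27 in vehicle mice (n = 5 in each, SD), and the log2 difference was -0.22 ± 0.12 (SE, limma adjusted p = 1.00). The P28 means were 10.34 ± 0.19 in cannabis mice and 10.44 ± 0.19 in vehicle mice (n = 4 in each, SD), a difference of -0.10 ± 0.13 (limma adjusted p = 1.00).

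The adult Gabrb1 difference depended on which arrays were read. Within arrays 1 to 3 the adult probe 1 difference was -0.070 ± 0.081 (SE), and within arrays 4 and 5 it was -0.43 ± 0.10 (limma adjusted p = 0.587). There, the adult cannabis arrays read 10.41 and 10.54, against 10.83 and 10.98 in the adult vehicle arrays. With the 2 sets of arrays as a block, the adult difference was -0.22 ± 0.07 (unadjusted p = 0.0076, limma adjusted p = 0.748). It thus fell short of the threshold over all probes in each of these fits.

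The second Gabrb1 probe did not follow the first. Probe 2 (ILMN_2826167) read 8.88, 8.75, 9.29, 8.46 and 8.79 in adult cannabis mice, against 8.91, 9.19, 8.50, 9.04 and 8.75 in adult vehicle mice. At P28 it read 8.80, 8.79, 8.81 and 8.68 in cannabis mice, against 8.65, 8.91, 8.71 and 8.63 in vehicle mice. The groups overlapped at both ages, and the P28 cannabis arrays were the closest together. Its cannabis difference was -0.044 ± 0.13 in adults and 0.044 ± 0.14 at P28 (SE, limma adjusted p = 1.00 in both). Over the 18 arrays the 2 Gabrb1 probes had a Pearson r of 0.026, which describes these arrays only.

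**Figure D2:**
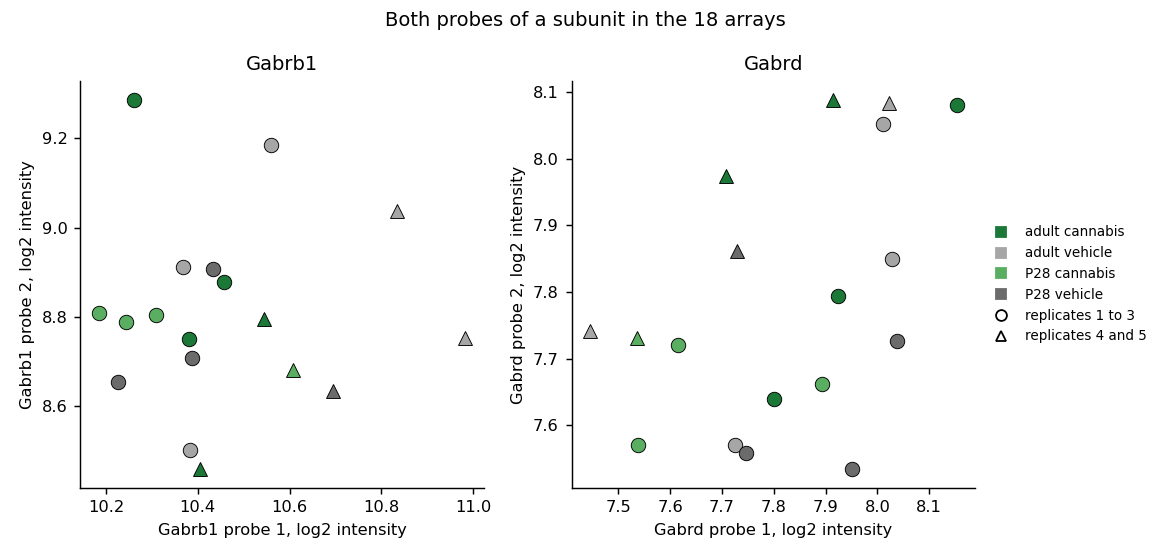
Log2 intensity of probe 1 (x axis) against probe 2 (y axis) for Gabrb1 and for Gabrd, 1 point per array, coloured by group, with triangles for replicates 4 and 5. The 2 Gabrb1 probes scatter without a shared trend over the 18 arrays (r = 0.026), and the 2 Gabrd probes share a loose one (r = 0.47).

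Gabrd encodes the delta subunit of extrasynaptic receptors, and both of its probes were well above background in all 18 arrays. Probe 1 (ILMN_2698299) read 7.62, 7.54, 7.89 and 7.54 in P28 cannabis mice, against 8.04, 7.75, 7.95 and 7.73 in P28 vehicle mice. In adults it read 7.80, 7.92, 8.15, 7.71 and 7.91 with cannabis, against 8.01, 8.03, 7.73, 8.02 and 7.45 with vehicle. At P28, 3 of the 4 cannabis arrays lay below every vehicle array, and in adults the groups overlapped widely. The P28 difference was -0.22 ± 0.13 (SE, limma adjusted p = 1.00) and the adult difference 0.053 ± 0.11 (limma adjusted p = 1.00). The difference between the 2 effects was 0.27 ± 0.17, with an interval from -0.086 to 0.63. Among P28 arrays of the same number, probe 1 was lower in the cannabis array in 4 of 4 pairs, as held for 5.84% of all tested probes. Gabrd probe 2 was lower in 2 of these 4 pairs and higher in 2, and no label pairs the arrays. With the replicate number as a block the P28 difference of probe 1 was -0.22 ± 0.12 (unadjusted p = 0.0827, limma adjusted p = 1.00).

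In the cannabis comparisons the dentate granule markers moved the same way as Gabrd probe 1, but with age in vehicle mice they parted. Both markers above background, Prox1 and Trpc6, had lower means in P28 cannabis than in P28 vehicle mice, with a mean level of 7.99 to 8.12 in P28 cannabis arrays against 8.18 to 8.24 in P28 vehicle arrays. In adults both had higher means with cannabis, with a mean level of 8.12 to 8.60 in cannabis arrays against 8.01 to 8.28 in vehicle arrays, and both also had higher means in adult than in P28 cannabis mice. With age in vehicle mice 1 marker was higher and 1 lower in adults (log2 differences of 0.16 and -0.36), where Gabrd probe 1 had -0.020. Neither marker was called, and their part in the Gabrd values was not tested.

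Gabrd probe 2 did not show the P28 difference. It (ILMN_2865082) read 7.72, 7.57, 7.66 and 7.73 in P28 cannabis mice, against 7.73, 7.56, 7.53 and 7.86 in P28 vehicle mice. In adults it read 7.64, 7.79, 8.08, 7.97 and 8.09 with cannabis, against 8.05, 7.85, 7.57, 8.08 and 7.74 with vehicle. Cannabis and vehicle arrays overlapped at both ages, and probe 2 ranged from 7.57 to 8.09 in adults, against 7.53 to 7.86 at P28. The cannabis difference of probe 2 was 0.0013 ± 0.12 at P28 and 0.056 ± 0.10 in adults (SE, limma adjusted p = 1.00 in both).

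Gabra4 encodes alpha 4, the usual partner of delta in dentate granule neurons. Its probe (ILMN_1237870) exceeded the background level in 6 of 18 arrays, 3 of adult vehicle and 3 of P28 cannabis mice, so it was tested because of those groups, and the filter fixes part of any difference that sets them against the others. Its differences are given as a description. It read 7.03, 6.99, 6.98 and 6.98 in P28 cannabis mice, against 6.93, 6.94, 6.96 and 6.97 in P28 vehicle mice. In adults it read 6.88, 6.89, 6.92, 6.92 and 6.89 with cannabis, against 6.96, 7.004, 7.04, 6.88 and 6.99 with vehicle. The P28 cannabis arrays were the higher ones at P28, without overlap, as for 0.844% of all tested probes. In adults 1 vehicle array lay among the cannabis arrays. The P28 difference was 0.048 ± 0.044 and the adult difference -0.075 ± 0.039 (SE). The difference between the 2 effects was -0.12 ± 0.06. After background correction by normexp the adult difference was -0.21 ± 0.09, also not called.

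Gabrb2 encodes beta 2, a subunit of the most common adult receptor. Its probe 1 (ILMN_2696413) read 7.38, 7.20, 7.27, 7.07 and 7.12 in adult cannabis mice, against 7.29, 7.17, 6.995, 7.28 and 7.08 in adult vehicle mice. At P28 it read 7.06, 7.10, 7.11 and 6.995 in cannabis mice, against 7.06, 7.04, 7.02 and 7.11 in vehicle mice. The spread was wider in adults than at P28, and cannabis and vehicle arrays overlapped at both ages. The cannabis differences were 0.045 ± 0.065 in adults and 0.011 ± 0.073 at P28 (SE, limma adjusted p = 1.00 in both). The other 3 Gabrb2 probes did not exceed the background level in any array.

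Gabra3 encodes alpha 3, known in rats for higher forebrain levels early in life. Its probe (ILMN_2595601) exceeded background in 16 of 18 arrays, by little. It read 7.01, 7.11, 6.996, 7.14 and 6.87 in adult cannabis mice, against 7.13, 7.08, 7.02, 7.18 and 7.01 in adult vehicle mice. At P28 it read 7.13, 7.07, 7.21 and 7.05 in cannabis mice, against 7.12, 6.96, 7.14 and 7.20 in vehicle mice. All groups overlapped, and the 2 arrays under the background level were an adult cannabis and a P28 vehicle array. The cannabis differences were -0.055 ± 0.060 in adults and 0.016 ± 0.067 at P28 (SE, limma adjusted p = 1.00 in both). The single Gabra5 probe, for a subunit known to be abundant in hippocampal pyramidal neurons, ranged from 6.57 to 6.81 over the 18 arrays and did not exceed the background level in any.

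**Figure D3:**
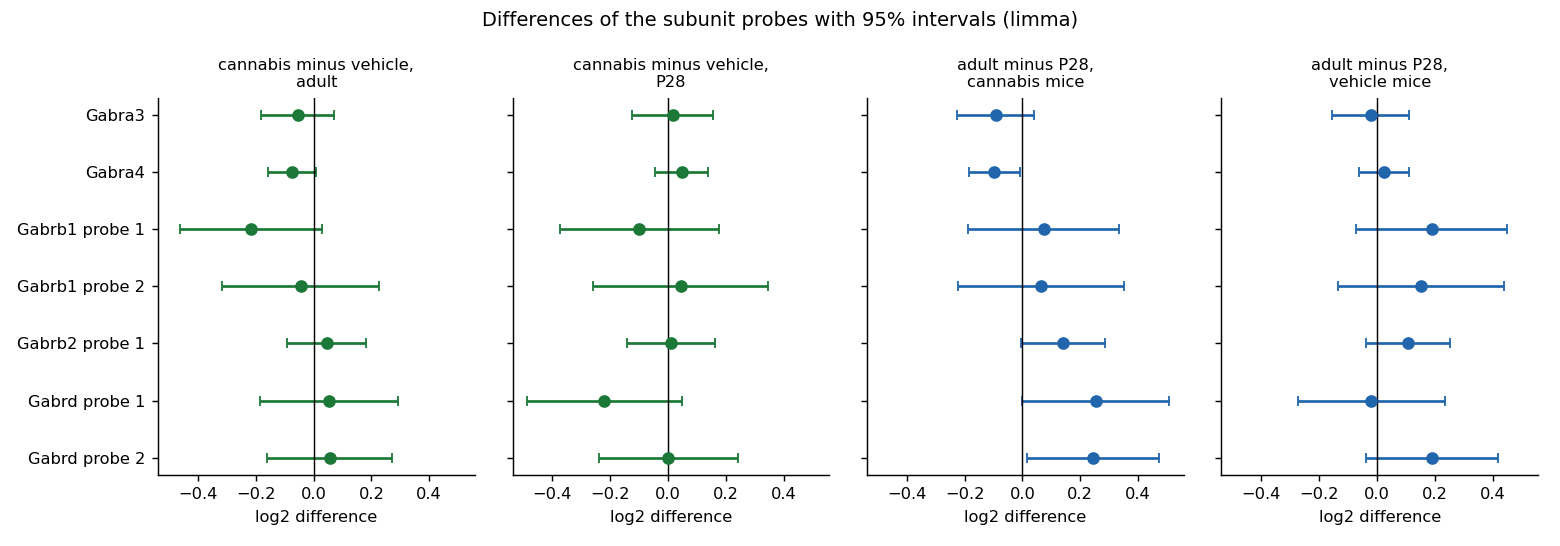
Log2 differences of the 7 subunit probes with 95% intervals from the limma fit (points, estimate; bars, interval), for cannabis minus vehicle in adults and at P28, and for adult minus P28 in cannabis and vehicle mice. All cannabis intervals span 0, and of the age intervals those of Gabra4 and Gabrd probe 2 in cannabis mice do not; neither passed adjustment over all probes, and Gabra4 was tested because of its P28 cannabis and adult vehicle arrays.

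From P28 to adulthood the subunits also showed no called change. Adults had also been through the behavioural tests with PCP and a washout, which cannot be told apart from age. P28 mice were still being fed, so in cannabis mice age also goes with the end of cannabis. Age here and below means adult minus P28 as a whole. In cannabis mice 0 of 7 probes were called, beside 0.0274% of all probes (5, all lower in adults). In vehicle mice 0 of 7 were called, beside 1.07% of all probes (195, of which 47 were higher and 148 lower in adults). At an unadjusted p under 0.05 the subunits gave Gabrd probe 2 in cannabis mice and 0 probes in vehicle mice, and all probes gave 1937 and 2461. Gabra4 was also under 0.05 in cannabis mice, but the filter fixes part of that difference, so Gabra4 is not counted. With Gabra4 left aside, the lowest limma adjusted p of a subunit was 0.441 in cannabis mice and 0.483 in vehicle mice, for Gabrd probe 2 in both. The 2 age comparisons share no arrays, but each uses arrays of the cannabis comparisons above.

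Gabrd had the largest age difference in cannabis mice. Probe 1 averaged 7.90 ± 0.17 in adult cannabis mice (SD, n = 5) and 7.65 ± 0.17 in P28 cannabis mice (n = 4), a log2 difference of 0.25 ± 0.12 (SE, unadjusted p = 0.0504, limma adjusted p = 0.473). Probe 2 averaged 7.92 ± 0.19 in adult cannabis and 7.67 ± 0.07 in P28 cannabis mice, a difference of 0.24 ± 0.11 (unadjusted p = 0.0379, limma adjusted p = 0.441). With the 2 sets of arrays as a block, probe 1 gave 0.28 ± 0.11 in cannabis mice (limma adjusted p = 0.290). Probe 2 gave 0.22 ± 0.10 there (limma adjusted p = 0.355). In vehicle mice the probes parted. Probe 1 averaged 7.85 ± 0.26 in adults and 7.87 ± 0.15 at P28, a difference of -0.020 ± 0.12 (limma adjusted p = 0.971). Probe 2 averaged 7.86 ± 0.22 in adults and 7.67 ± 0.15 at P28, a difference of 0.19 ± 0.11 (limma adjusted p = 0.483).

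Gabra4 differed in the other direction in cannabis mice. The 5 adult cannabis arrays read 6.88 to 6.92, against 6.98 to 7.03 in the 4 P28 cannabis arrays. Such a lack of overlap, lower in adults, held for 1.45% of all tested probes. The probe passed the filter through P28 cannabis arrays, so this difference too is a description. The difference was -0.097 ± 0.041 (SE), and -0.28 ± 0.09 after normexp, called in neither. All adult cannabis readings were below the background level, so the size of the difference is bounded by the array's floor. In vehicle mice it was 0.026 ± 0.041.

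No age difference of the beta subunits or alpha 3 passed the test. Gabrb1 probe 1 differed by 0.074 ± 0.12 in cannabis mice and 0.19 ± 0.12 in vehicle mice, adult minus P28 (SE), and by 0.027 ± 0.076 and 0.14 ± 0.08 with the 2 sets of arrays as a block. Gabrb1 probe 2 differed by 0.063 ± 0.14 in cannabis mice and 0.15 ± 0.14 in vehicle mice. Gabrb2 probe 1 differed by 0.14 ± 0.07 in cannabis mice (unadjusted p = 0.0578, limma adjusted p = 0.494) and by 0.11 ± 0.07 in vehicle mice. With the 2 sets of arrays as a block these were 0.15 ± 0.07 (limma adjusted p = 0.360) and 0.11 ± 0.07. Gabra3 differed by -0.092 ± 0.064 in cannabis mice and -0.021 ± 0.064 in vehicle mice. The beta probes thus had higher means in adults under both feedings, none past the test.

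Beside these values the levels of oligodendrocyte markers were lower in adults. Of 7 oligodendrocyte markers, 0 were called in cannabis mice and 5 were called lower in adult than in P28 vehicle mice, and all 7 had lower means in adults under both feedings. Their mean log2 level lay between 10.4 and 11.2 in adult vehicle arrays, against 11.9 to 12.3 in P28 vehicle arrays, and between 10.7 and 11.5 in adult cannabis arrays, against 11.7 to 12.5 in P28 cannabis arrays. The part of this difference in the subunit values was not tested.

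Other genes of GABA signalling were listed in 6 groups, and 33 of 56 listed genes had a probe above background. None of the 33 was called in any of the 5 comparisons by limma, beside calls for 0% of all probes in the 3 cannabis comparisons, 0.0274% for age in cannabis mice and 1.07% for age in vehicle mice. At an unadjusted p under 0.05 the 33 genes gave 1 for cannabis at P28, 4 in adults, 2 for the difference of effects, 5 for age in cannabis mice and 8 for age in vehicle mice. At that threshold all probes gave 1.79%, 3.55%, 2.91%, 10.6% and 13.5% in the same order. Among the other receptor subunits 1 of 8 on the array was above background, Gabrg1 (gamma 1), with a cannabis difference of 0.029 at P28 and -0.0076 in adults.

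The genes of the lists with the smallest p differed mostly with age. Slc12a2, the chloride importer NKCC1 that keeps GABA depolarising in young neurons, read 11.13, 11.22, 10.82, 11.16 and 11.06 in adult cannabis mice, against 11.42, 11.99, 11.54 and 11.69 in P28 cannabis mice. It read 10.82, 11.14, 11.40, 11.10 and 11.04 in adult vehicle mice, against 11.49, 11.86, 11.87 and 11.39 in P28 vehicle mice. Adult readings were the lower ones, without overlap in cannabis mice (as for 1.45% of all tested probes) and with 1 array overlapping in vehicle mice. The difference was -0.58 ± 0.13 in cannabis mice (SE, limma adjusted p = 0.0815) and -0.55 ± 0.13 in vehicle mice (limma adjusted p = 0.0510), and its second probe gave -0.56 and -0.50. In vehicle mice Slc12a2 was called under 9 of 29 alternatives and in cannabis mice under 1 of 29. With the replicate number as a block it was -0.54 ± 0.12 in vehicle mice (limma adjusted p = 0.0332). NKCC1 is also made by choroid plexus and oligodendrocyte-lineage cells, whose levels are given above and whose part was not tested.

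Gabarap, a protein that carries GABA-A receptors to the surface, had an adult minus P28 log2 difference of -0.29 ± 0.08 in cannabis mice (SE, limma adjusted p = 0.156) and -0.24 ± 0.08 in vehicle mice (limma adjusted p = 0.156). Trak2, a kinesin adaptor, had a difference of -0.35 ± 0.13 in vehicle mice (limma adjusted p = 0.218). Slc32a1, the vesicular GABA transporter of interneurons, had -0.30 ± 0.08 in cannabis mice (limma adjusted p = 0.128). Slc6a13, the GABA transporter GAT2 of meninges and vessels, had -0.49 ± 0.14 in vehicle mice (limma adjusted p = 0.0883), where 2 of the 4 P28 arrays stood high at 7.97 and 7.80. Slc6a13 was called under 6 of 29 alternatives, among them the replicate block (-0.47 ± 0.10, limma adjusted p = 0.0255) and the 2 sets of arrays as a block (-0.45 ± 0.11, limma adjusted p = 0.0397). In the main fit of all 18 arrays, unweighted, with no block and the default prior, none of these genes passed the test.

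Of the remaining lists, Car2, a carbonic anhydrase that supplies bicarbonate, differed by 0.34 ± 0.15 with age in vehicle mice (SE). Cyp11a1, the first enzyme of neurosteroid synthesis, differed by -0.26 ± 0.09 with age in vehicle mice, and Dbi, the diazepam-binding inhibitor, by -0.24 ± 0.09 with age in cannabis mice. Kctd12, an auxiliary subunit of GABA-B receptors, differed by 0.25 ± 0.08 with cannabis in adults (unadjusted p = 0.00503, limma adjusted p = 1.00). Gabbr1, a GABA-B receptor subunit, differed by -0.10 ± 0.09 with age in cannabis mice. Over all 33 genes the median log2 difference was 0.0025 for cannabis at P28, -0.033 for cannabis in adults, -0.046 for age in cannabis mice and -0.067 for age in vehicle mice.

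**Figure D4:**
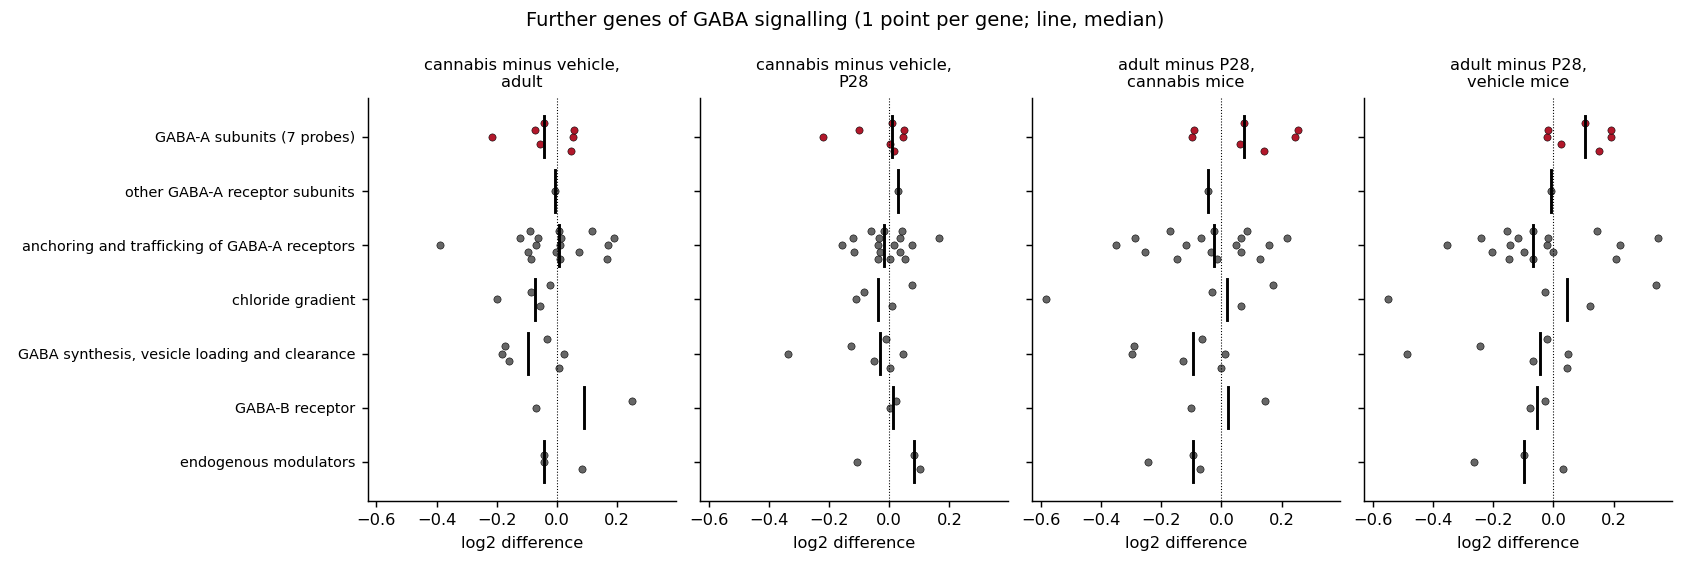
Log2 differences (x axis) of the 7 subunit probes and of the genes of 6 GABA signalling lists (1 point per gene, vertical line at the median) for cannabis minus vehicle in adults and at P28 and for adult minus P28 in cannabis and vehicle mice. The point furthest left in both age panels is Slc12a2, at -0.58 in cannabis mice and -0.55 in vehicle mice; no point passed the test.

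The subunits showed little common movement over the arrays. Between main probes the largest correlations over the 18 arrays were -0.57 for Gabra4 with Gabrb2 and 0.51 for Gabrb2 with Gabrd, of 10 pairs. Gabra4 and Gabrd had r = -0.46. These describe arrays that share groups and the 2 sets of replicate numbers, and after taking out group means they were -0.54, 0.48 and -0.30. Gabra4 exceeded the background level in 6 of 18 arrays and passed the filter through P28 cannabis and adult vehicle arrays. Its r values therefore describe readings near the floor and say nothing of the receptor partners. With group means taken out the largest was -0.55, for Gabrb1 with Gabrd (-0.30 over all 18 arrays as they stand).

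The named genes with the most similar pattern were picked by Pearson r over the 18 arrays. For Gabrb1 probe 1 they were Secisbp2 (0.94), Maml2 (0.87) and Diras2 (0.87). For Gabrd probe 1 they were Cdh8 (0.88), Dtna (0.85) and Mef2c (0.85). For Gabrb2 they were Zeb2 (0.80), Exd2 (0.77) and Syne1 (0.76). Gabra3 was closest to Acsf3 (0.81), Rps13 (0.79) and Vldlr (0.78), and Gabra4 to Cacnb1 (0.80), Spata33 (0.74) and Pold4 (0.72). With group means taken out, the Gabrb1 values were 0.92, 0.91 and 0.94, and the Gabra4 values were 0.70, 0.58 and 0.61. The r values over the 18 arrays are the highest among all named genes tested, over arrays in which Gabrb1 probe 1 also differed between the 2 sets of arrays. Gabra4, Cacnb1, Zeb2 and Maml2 had mean levels of 6.95, 6.96, 6.94 and 6.94, under the background level, so likeness there is between readings near the floor.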

How the data were processed

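Hippocampal RNA of 18 samples was measured on Illumina bead arrays. The authors' deposited value table holds log2 intensities, processed in Partek per the submitters' processing notes (steps not given in the sources used here). Every array has the same quartiles within 1e-05 (median 6.86), as after quantile normalization. The lowest value is 6.50, as without background subtraction or with an offset added, and the sources used do not say which. The groups come from the sample titles. The table was used as deposited. A probe was above background if over 6.98 in at least 4 arrays, the peak of unexpressed probes (6.77) plus 3 lower-side SDs (0.0702). This kept 18250 of 45281 probes. A single gene symbol was given for 34885 probes, several for 18 and none for 10378; 10 symbols were updated. Some 72 further per-sample columns, in files not used here, match no sample.

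Group means were fitted over all 18 arrays with limma 3.58.1 in R 4.3.3 (14 residual degrees of freedom), with Benjamini-Hochberg adjustment over 18250 probes and a 2-sided threshold of 0.05. The fit was tested on simulated data. The number of arrays limits the precision. Of the further lists, which hold 6 groups of GABA genes and 12 of cell type markers, the text names the 2 genes a list with the smallest p where none was called. Some listed genes are not reported here. Similar genes are the 3 with the highest r. The members and lists were chosen with earlier results of these data known. Same-numbered P28 arrays deviated together (r of deviations 0.196 to 0.534, 4 pairs). Same-numbered arrays of different ages reached 0.641, and differently numbered arrays were not compared, so a pairing by number was not tested. No label gives such a pairing, and the replicate block is an alternative only. Values come from the fit without it unless a block is named. In adults r ran from -0.151 to 0.498. Alternatives were the dim-probe filter, the prior, array weights, the arrays fitted, replicate and set blocks, normexp, probe means, a fold minimum and leaving out arrays.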

Additional observations from a re-analysis of the deposited data

Results flagged for a closer look

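In the P28 cannabis group, 1 array was flagged for Gabrb1 probe 2, below the other 3, which lay close together. Replicate 4 read 8.68, with the nearest other array at 8.79 and the highest at 8.81, so the gap took up 0.838 of the range, above Dixon's 95% critical value for 4 samples. Chance flags about 1 in 20 groups, and 28 were examined. The P28 cannabis difference of this probe was not called with or without that array.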

How the results depend on the processing

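The count of 0 called subunit probes held in each of the 5 comparisons under every alternative run (29 settings, or 28 for the difference of effects, and the fold minimum), with lowest adjusted p of 1.00 for cannabis at P28, 0.587 for cannabis in adults, 0.941 for their difference, 0.212 for age in vehicle mice and 0.248 for age in cannabis mice. The 0.941 belonged to Gabra4, whose difference the filter fixes in part, as given above. None of the values below was called. Of 998 single values, 45 had the opposite sign to the value given above, 24 of them with 1 array left out; the cause was not tested. With the replicate number as a block, no subunit call changed, and adult minus P28 in vehicle mice became 0.0068 for Gabra3 and 0.029 for Gabrd probe 1. With arrays 4 and 5 against 1 to 3 as a block, the last was 0.0053. With array weights, Gabrd probe 2 had -0.0083 for cannabis in adults and -0.043 for the difference of effects. Within replicates 1 to 3, Gabrb1 probe 2 had 0.11 for cannabis in adults and 0.062 for the difference of effects, where Gabrb1 probe 1 had 0.034 and Gabrd probe 2 -0.031. Age in vehicle mice there was 0.00059 for Gabra3 and 0.010 for Gabrd probe 1. Within replicates 4 and 5, where each P28 group is 1 array assumed to vary like the adults, cannabis at P28 was -0.14 for Gabra3, -0.11 for Gabrb2 and -0.13 for Gabrd probe 2. There, cannabis in adults was -0.085 for Gabrb2, and the difference of effects was 0.052 for Gabra3. Age in vehicle mice there was -0.029 for Gabra4 and 0.0041 for Gabrd probe 1, and age in cannabis mice was -0.13 for Gabrb1 probe 1 and -0.054 for Gabrb1 probe 2. The mean of the Gabrd probes gave 0.085 for age in vehicle mice.

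With 1 array left out in turn, cannabis at P28 ran from -0.032 to 0.047 for Gabra3, from -0.0037 to 0.035 for Gabrb2 and from -0.044 to 0.065 for Gabrd probe 2. Cannabis in adults ran from -0.16 to 0.050 for Gabrb1 probe 2, from -0.047 to 0.10 for Gabrd probe 1 and from -0.016 to 0.13 for Gabrd probe 2. The difference of effects ran from -0.20 to 0.0054 for Gabrb1 probe 2, from -0.0095 to 0.070 for Gabrb2 and from -0.018 to 0.12 for Gabrd probe 2. Age in vehicle mice ran from -0.069 to 0.0095 for Gabra3 and from -0.065 to 0.081 for Gabrd probe 1, and age in cannabis mice from -0.051 to 0.16 for Gabrb1 probe 2.

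Of the further GABA genes, 0 to 3 were called for age in vehicle mice over the alternatives, 3 of them with array weights (Slc12a2, Slc6a13 and Gabarap) and 2 (Slc12a2 and Slc6a13) with the replicate block, with either block for sets of arrays and without P28 vehicle replicate 4, and 0 to 1 for age in cannabis mice (Slc12a2 without P28 cannabis replicate 1). All probes called for age in vehicle mice numbered 195, 28 to 317 with 1 array left out and 0 to 850 otherwise, and for age in cannabis mice 5, 0 to 102 and 0 to 141. For cannabis they reached 16 at P28 and 1 in adults, and 10 for the difference of effects. Signal near background limits Gabra3, Gabra4 and Gabrb2 most.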
